A study of Mus musculus with 8 samples.

Results

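The insulin-like growth factor axis was described here by 10 genes: the ligands Igf1 and Igf2, the receptors Igf1r and Igf2r, the binding proteins Igfbp2, Igfbp3, Igfbp4, Igfbp5 and Igfbp7, and the noncoding RNA H19, which neighbours Igf2 on mouse chromosome 7. Members were taken by gene name from the probe annotation of the arrays, which gave 22 probes on 40 spots, of 41174 probes for 27729 gene names in all. All 10 genes had at least 1 probe, and 8 of them were measured well enough to be tested. Hearts came from E10.5 mouse embryos that carried minKGFP, a bacterial artificial chromosome transgene in which green fluorescent protein stands in for minK (Kcne1), a potassium channel subunit. Dissociated cells were sorted on fluorescence alone into GFP-high, which the labels describe as conduction system cells, and GFP-low, described as chamber myocardium, with 4 biological replicates each. Cells of both groups carried the transgene, so neither group is wild type, and the labels do not give litter, sex or the number of pooled hearts. RNA was amplified from 5 ng per sample and 2 ug of product was hybridised to 1-colour arrays.

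Insulin-like growth factors are secreted hormones that promote growth and survival of embryonic tissues, and Igf2 is the main one before birth in the mouse. Both ligands act through the tyrosine kinase receptor Igf1r, whereas Igf2r binds Igf2 and delivers it to lysosomes, and the binding proteins hold the ligands outside the cell and either restrain or deliver them. In the embryonic heart Igf2 is known as a mitogen for the ventricular wall. Igf2 and H19 are imprinted in opposite ways in the mouse and share enhancers, with Igf2 active from the paternal copy and H19 from the maternal one.

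The probes on which the results turn are shown because the comparison rests on short stretches of each transcript. Both H19 probes are printed whole, with the Igf1 probe that was brightest, and those of Igfbp5 and Igf2 by their first 30 bases of 60, in the orientation on the array.
H19 A_51_P142196: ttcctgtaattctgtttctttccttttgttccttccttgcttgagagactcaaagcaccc
H19 A_52_P571350: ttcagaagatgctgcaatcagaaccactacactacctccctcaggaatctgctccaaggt
Igf1 A_52_P536434: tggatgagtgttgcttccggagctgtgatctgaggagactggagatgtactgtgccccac
Igfbp5 A_52_P281702: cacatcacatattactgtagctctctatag
Igfbp5 A_51_P204153: aatagaattttccttggtgtctcccatcta
Igf2 A_51_P516833: gacagaaactcaaagagtaaattgttataa
Igf2 A_51_P516826: aacatgcattttctggcaaaatcaaagctt
On mouse build mm9 the files place the H19 probes on the minus strand at chr7:149761769-149761828 and chr7:149762018-149762165, and the Igf2 probes on the same strand at chr7:149837115-149837174 and chr7:149836673-149836709. The Igfbp5 probes lie on the minus strand at chr1:72904829-72904888 and chr1:72907366-72907425, and the Igf1 probe on the plus strand at chr10:87376418-87376477. A span longer or shorter than 60 bases is given as the files have it.

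Levels below are log2 of the processed signal relative to the 75th percentile of the same array, so 0 is the signal of that percentile and levels of different probes cannot be set against each other. The fraction of spots well above background ran from 36.3% (GFP-high replicate 3) to 50.7% (GFP-low replicate 2). Kcne1, on which the sort rests, was higher in GFP-high with no overlap of the arrays for either probe, by 1.29 and 2.83 on the log2 scale. The probe that stood for the gene in the test, at 1.29, had a limma adjusted p of 0.202 and did not pass at 0.05. All 14 cardiomyocyte markers were tested, and their summed level, in multiples of the 75th percentile, was 3978 to 6123 in GFP-high and 2626 to 4685 in GFP-low. Over all genes the median difference between the groups was 0.16, and 0.05 to 0.16 under the other scalings, so the typical gene also read slightly higher in GFP-high.

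No member of the axis passed the test between GFP-high and GFP-low: 0 of 8 tested genes had a limma adjusted p under 0.05, where 0.14% of 12875 genes did (18 genes, 9 or 0.0699% in each direction). Igfbp5 stood nearest to the threshold, with a signal 1.92-fold higher in GFP-high, followed by H19 at 1.31-fold. At an unadjusted p under 0.05, 1 member was higher (Igfbp5; background 7.94% of all genes) and 0 were lower (background 6.38%). In 2 members, Igfbp5 and H19, every GFP-high array lay above every GFP-low array, which was so for 5.86% of all genes, and the reverse was found for 0 members (background 3.08%, or 8.95% in either direction). Differences were positive in 6 of the 8 members against 62.1% of all genes, and their median was 0.21 against 0.16 over all genes. Tested probe by probe, 0 of 13 member probes passed (background 0.0379% of 18482 probes), 2 had an unadjusted limma p under 0.05 (background 13.9%) and 3 had groups that did not overlap (background 8.64%). In whole sorted populations such a difference can reflect cells with more of the RNA or more cells that make it, and these cannot be told apart.

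**Figure D1:**
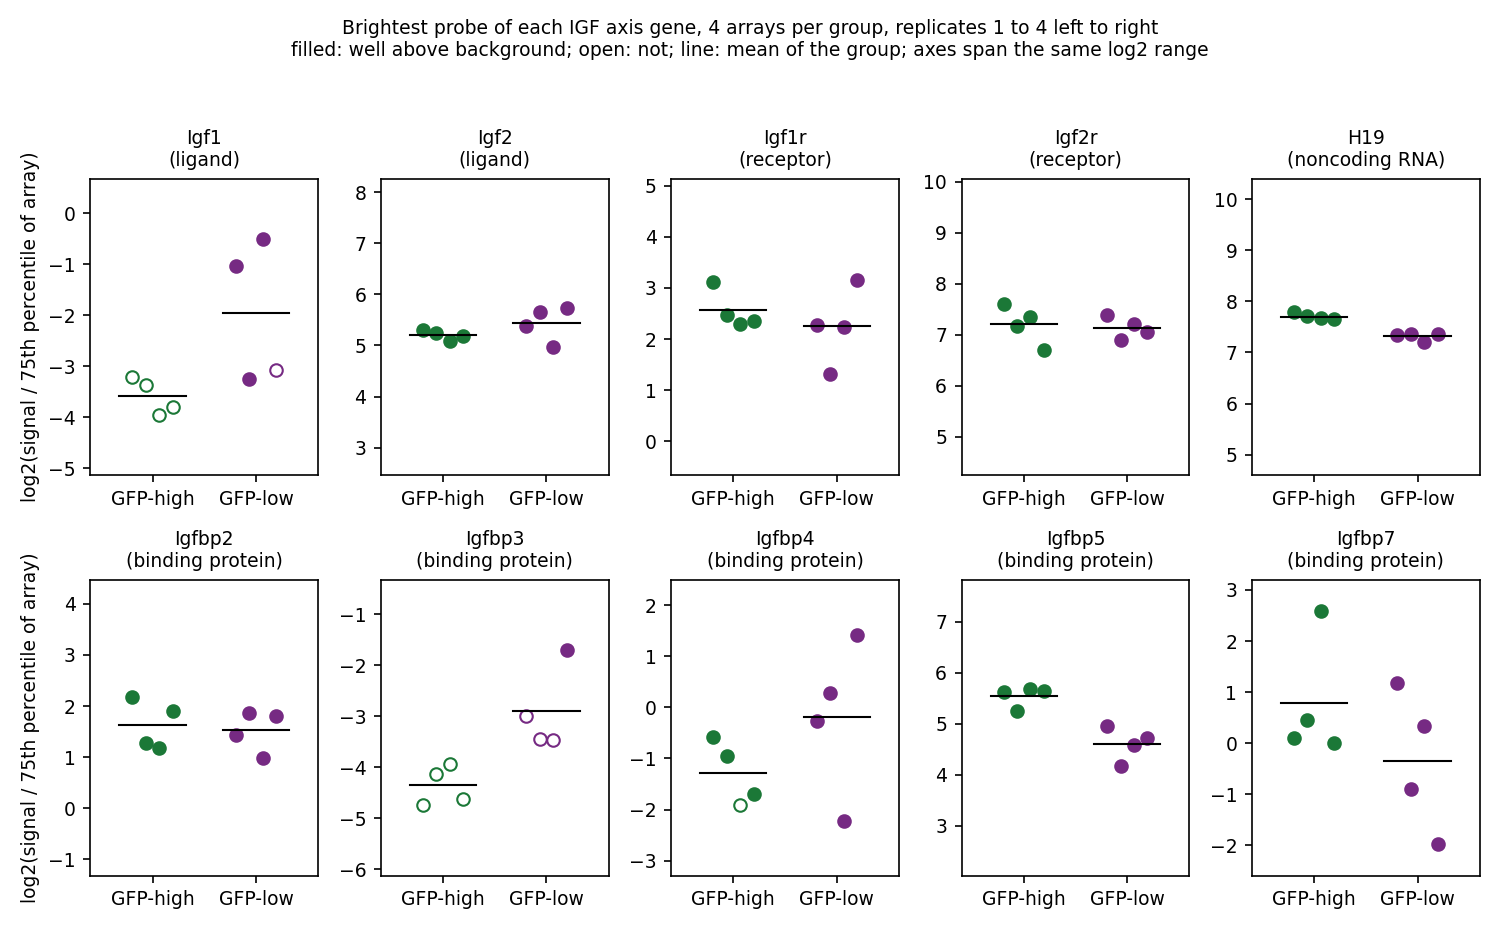
Level of the brightest probe of each of the 10 genes on every array, as log2 of signal over the array's 75th percentile. Filled points were well above background, open points were not, and lines are group means. Igfbp5 and H19 have groups that do not overlap, and no GFP-high point of Igf1 or Igfbp3 is filled.

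Among the ligands, Igf1 was measured above background on GFP-low arrays only. Its brightest probe read -3.21, -3.36, -3.96 and -3.80 on GFP-high replicates 1 to 4, with none of them well above background, and -1.03, -3.24, -0.51 and -3.08 on GFP-low replicates 1 to 4. GFP-low replicates 1 and 3 were high, and the other 2 lay close to the GFP-high arrays, so the groups overlapped. Replicates 1, 2 and 3 of GFP-low were well above background. With each GFP-high array raised to the lowest signal measured above background on it, Igf1 was 1.54-fold lower in GFP-high. This is a bound for this treatment of dim signals alone, and it takes GFP-low replicate 4 as read, though not well above background. This bound rested on GFP-low replicates 1 and 3: it was 1.24-fold without the former and 1.099-fold without the latter, as tried after the data were seen. Other treatments of dim signals gave smaller log2 differences than this bound, -0.46 with all dim signals of all arrays raised to 1 common floor and -0.38 with normexp background correction. The gene was well above background on 3 of 8 arrays and was therefore not tested; with no filter on dim probes its limma adjusted p was 0.565.

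A second Igf1 probe, A_51_P147942 at chr10:87393516-87393575, was printed on 10 spots. It read -5.35, -5.29, -3.93 and -4.54 on the GFP-high arrays and -0.80, -5.56, -2.69 and -2.24 on the GFP-low arrays. Replicates 1, 3 and 4 of GFP-low were well above background here, and replicate 2 was not. The 2 probes thus shared replicates 1 and 3 as arrays with measurable Igf1. On replicate 3 this rested on 5 of 10 spots, the smallest share that counted as detected. On GFP-high replicate 4, 2 spots were flagged well above background, too few to count. No bound above 1-fold could be given for this probe. The other 2 Igf1 probes were not well above background on any array. GFP-low replicate 1 also had the highest summed level of foregut and liver endoderm markers, 9.15 against 0.667 to 1.65 on the 7 other arrays, and the highest of mesenchyme and fibroblast markers, 64.5 against 37.8 to 58.8. Few genes carried these sums. In the endoderm list Afp was above background on 1 array, of GFP-low, where its SD was 4.03 (log2), and Hnf4a, the gene tested, differed by -0.11. In the mesenchyme list Vim was by far the brightest, at a mean of 5.40 in GFP-high and 5.35 in GFP-low (log2). GFP-low replicates 1 and 3 had the highest Igf1 on the brightest probe. They also had the highest sums of their group for 15 endocardial and endothelial markers (11.5 and 10.4 against 4.25 and 4.498). The same held for 10 erythroid markers (173 and 119 against 33.7 and 12.9). GFP-high replicate 3 had an erythroid sum of 186, the highest of all 8 arrays, and an endothelial sum of 9.49. On that array the brightest Igf1 probe read -3.96 and was not well above background, so its place among the arrays has no certain order. Of the 9 endoderm markers 1 was tested and 1 was on no array above background, and of the 14 mesenchyme markers 7 were tested and 1 was on no array; the endothelial list had 7 tested and 3 on no array, and the erythroid list 6 and 1. The part of these cells in the Igf1 signal was not tested.

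Igf2 was well above background on all 8 arrays, and its groups overlapped on both probes. The brighter probe read 5.31, 5.25, 5.08 and 5.18 in GFP-high and 5.38, 5.65, 4.98 and 5.74 in GFP-low. The GFP-high arrays lay within the range of the GFP-low arrays, whose spread was larger (SD 0.342 against 0.0966, n = 4 each). The difference was -0.23 ± 0.25 (SE, log2, limma adjusted p = 0.668), and it was -0.24 within slide 1 and -0.23 within slide 2. The second probe, on 10 spots, gave 4.68, 4.63, 4.64 and 4.53 against 4.88, 4.57, 4.69 and 4.60, a difference of -0.07. Its repeated spots had SDs from 0.0179 to 0.0607 on the log2 scale within an array, which cover the noise of spots alone. The gene's difference was negative in 21 of 21 alternative settings. Some of these could not change it: the authors' table of the same values, the filters, slide and replicate blocks, and trend and robust fitting. The common floor left it unchanged too. Of 7 other scalings and value sources, 2 placed all GFP-high arrays below all GFP-low arrays for the brighter probe (-0.38 under quantile normalisation, -0.39 with normexp before it) and 1 did so for the second probe (-0.17 with the percentile of detected probes). RefSeq places Igf2os and the microRNA gene Mir483 over Igf2, and Igf1os over Igf1, and the labels do not state the strand of the labelled product, so signals of such neighbours cannot be told apart from those of the ligands.

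Neither receptor passed the test, and their groups overlapped on every probe. Igf1r, the receptor that signals for both ligands, read 3.11, 2.48, 2.29 and 2.36 in GFP-high and 2.27, 1.32, 2.24 and 3.15 in GFP-low on its brightest probe (chr7:75372500-75372559). GFP-low replicates 2 and 4 were the lowest and the highest of all 8 arrays. The difference was 0.31 ± 0.40 (SE, limma adjusted p = 0.725), with 0.997 within slide 1 and -0.37 within slide 2; it was 0.0050 without GFP-low replicate 2 and 0.62 without GFP-low replicate 4, and 0.13 without GFP-high replicate 1. A second probe nearby, at chr7:75371556-75371615, read 1.72, 2.28, 1.99 and 2.43 against 1.76, 0.49, 1.12 and 0.54. Only GFP-low replicate 1 reached the GFP-high range there. Its difference was 1.13 ± 0.35 (SE, 2.19-fold), with an unadjusted limma p of 0.0116 and an adjusted p of 0.254 over all probes. The dimmest measured probe gave -0.22 and the remaining one, assigned to a clone sequence, was on no array above background, so the probes of Igf1r disagreed in sign. RefSeq has the noncoding genes Gm51487 and Gm51488 overlapping Igf1r, with the same limit on strand.

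Igf2r, the clearance receptor for Igf2, had 1 probe (chr17:12875253-12875263 as the files give it). It read 7.60, 7.18, 7.35 and 6.70 in GFP-high and 7.38, 6.89, 7.21 and 7.05 in GFP-low. The groups overlapped throughout, and GFP-high replicate 4 was the lowest array. The difference was 0.07 ± 0.27 (SE, limma adjusted p = 0.912), and its sign turned under 4 of the other scalings and background corrections. Within each array, Igf1r stood 0.24 higher relative to Igf2r in GFP-high than in GFP-low (log2, exact two-sided permutation p = 0.571), and this sign also turned within slide 2.

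H19, a noncoding RNA of the imprinted Igf2 domain, read 7.78, 7.71, 7.67 and 7.66 on the GFP-high arrays and 7.34, 7.36, 7.21 and 7.35 on the GFP-low arrays on its brighter probe. All GFP-high arrays lay above all GFP-low arrays, and both groups were tight, with SDs of 0.0571 and 0.0700 (n = 4 each). The difference was 0.39 ± 0.20 (SE, log2; 1.31-fold), with an unadjusted limma p of 0.0845 and an adjusted p of 0.403. The SE of the fit is larger than the SDs of these arrays would give, because limma moves each gene's spread towards that of all genes. The second probe read 7.44, 7.31, 7.19 and 7.41 in GFP-high and 7.03, 7.001, 6.62 and 7.14 in GFP-low, again with no overlap and a difference of 0.39. Within slide 1 the brighter probe differed by 0.40 and within slide 2 by 0.38, and all 4 pairs of equal replicate number were higher in GFP-high. Of the same 7 scalings and value sources, 3 kept the groups apart for the brighter probe. Among these were the authors' table of the same values and the common floor, which left its difference unchanged, and the percentile of detected probes. Under the other 4 (median scaling, quantile normalisation, normexp, and normexp with quantile normalisation) the groups overlapped. The difference was 0.13 to 0.39, positive in each. Under quantile normalisation it was 0.13, where the median gene stood at 0.09. For the second probe the groups stayed apart only with the authors' table and the common floor, which left its difference unchanged too. They overlapped under the other 5. RefSeq places the microRNA gene Mir675 inside H19.

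Because Igf2 and H19 share their control region, their difference within each array was compared as well. Igf2 minus H19 was -2.48, -2.46, -2.59 and -2.48 on the GFP-high arrays and -1.96, -1.71, -2.23 and -1.61 on the GFP-low arrays. Every GFP-high array was lower than every GFP-low array, and the GFP-low values were the more spread. The mean was -2.50 ± 0.06 in GFP-high and -1.88 ± 0.28 in GFP-low (SD, n = 4 each), so Igf2 relative to H19 was 0.62 lower in GFP-high on the log2 scale. The exact two-sided permutation p was 0.0286, the smallest that 70 assignments of 4 and 4 arrays allow, and 0.0571 after adjustment over the 2 such contrasts computed. The change was -0.63 within slide 1 and -0.61 within slide 2. Other probe pairs, chosen after the data were seen, gave -0.63, -0.46 and -0.46, and quantile normalisation gave -0.51, with an exact permutation p of 0.114. Such a ratio does not tell which of the 2 transcripts differed. H19 alone already had groups that did not overlap, as 8.95% of all genes did in either direction.

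**Figure D2:**
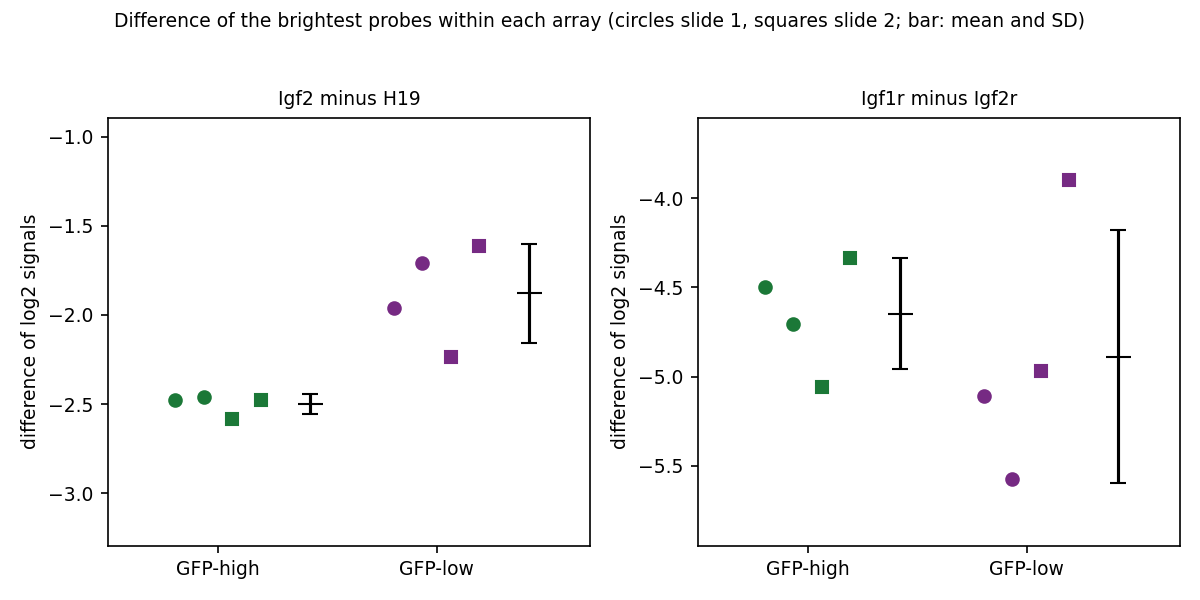
Difference of log2 signals of Igf2 and H19 (left) and of Igf1r and Igf2r (right) within each of the 8 arrays, with the mean and SD of each group. The 4 GFP-high values of Igf2 minus H19 lie between -2.59 and -2.46 and all GFP-low values lie above them, while the groups overlap for the receptors.

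On the brightest probes, the binding proteins Igfbp7, Igfbp4 and Igfbp5 showed the largest differences of the tested members, in both directions, and none of them passed. The second Igf1r probe differed by a like amount, 1.13. Igfbp5, a binding protein that also attaches to extracellular matrix, read 5.63, 5.24, 5.68 and 5.65 in GFP-high and 4.95, 4.17, 4.59 and 4.72 in GFP-low on its brighter probe. All GFP-high arrays lay above all GFP-low arrays, and replicate 2 was the lowest array of each group. The difference was 0.94 ± 0.25 (SE, log2; 1.92-fold), with an unadjusted limma p of 0.00539 and an adjusted p of 0.202. It was 0.87 within slide 1 and 1.01 within slide 2, and all 4 pairs of equal replicate number had the same sign. The second probe read 5.32, 4.35, 4.23 and 5.11 against 4.62, 4.06, 3.85 and 4.41. Its difference was smaller, 0.52, and its groups overlapped, although each GFP-high array was above the GFP-low array of its own number. The brighter probe kept the groups apart under 5 of the same 7, all but median scaling and normexp background correction, with differences from 0.75 to 0.94. These 5 include the authors' table and the common floor, which left the difference of this probe unchanged.

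Summed marker levels of 2 other cell types were higher on every GFP-high array than on every GFP-low array, as Igfbp5 and H19 were. The summed level of 9 leukocyte markers was 11.7 to 15.9 in GFP-high and 3.798 to 6.22 in GFP-low. Lyz2 carried this sum, at 1.46 ± 0.24 (SE, log2 difference, limma adjusted p = 0.0948), and it passed with the common floor and with trend and robust fitting. In this list 2 of the 9 genes were tested, Lyz2 alone had groups that did not overlap, and Ptprc, Csf1r and Itgam were on no array above background. The summed level of 12 epicardial markers was 27.1 to 41.1 in GFP-high and 17.2 to 25.9 in GFP-low. The brightest of them were keratin genes, with Krt18 at a mean of 4.35 and Krt8 at 2.42 in GFP-high (log2). In that list 7 genes were tested, 0 passed and 0 had groups that did not overlap, 2 were higher at an unadjusted limma p under 0.05 (Krt8 and Krt18), and all 7 had positive differences with a median of 0.51, while Upk3b, Upk1b, Msln, Lrrn4 and Sema3d were on no array above background. The part of these cells in the Igfbp5 and H19 values was not tested.

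Igfbp7, which binds insulin-like growth factors weakly and is known from vessel walls, read 0.10, 0.45, 2.58 and 0.01 in GFP-high and 1.17, -0.90, 0.33 and -1.97 in GFP-low. GFP-high replicate 3 was the highest and GFP-low replicate 4 the lowest, and the groups overlapped. The difference was 1.13 ± 0.80 (SE, log2; limma adjusted p = 0.526), with 0.14 within slide 1 and 2.12 within slide 2; without GFP-high replicate 3 it was 0.53. The arrays of each group stood in the same order for Igfbp7 as for the summed level of 10 erythroid markers, which was 32.2, 46.6, 186 and 26.0 in GFP-high and 173, 33.7, 119 and 12.9 in GFP-low. The summed level of 15 endocardial and endothelial markers was also highest on GFP-high replicate 3 (9.49) and GFP-low replicate 1 (11.5), the arrays with the highest Igfbp7 of their group. So was that of 14 mesenchyme and fibroblast markers (58.8 and 64.5). Vim was by far the brightest of them, at a mean of 5.40 in GFP-high and 5.35 in GFP-low (log2). GFP-high replicate 3 and GFP-low replicate 1 also had the lowest share of spots well above background in their groups, 36.3% and 40.5%. Erythroid sums of the groups overlapped, and the part of these cells in the Igfbp7 values was not tested. RefSeq has the protein-coding gene Polr2b and the noncoding Gm34648 overlapping Igfbp7. As the strand of the labelled product is not stated, signals of such neighbours cannot be told apart from those of Igfbp7.

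Igfbp4, a binding protein that restrains the ligands until it is cleaved, read -0.58, -0.96, -1.91 and -1.70 in GFP-high and -0.26, 0.28, -2.22 and 1.43 in GFP-low on its brighter probe. GFP-low replicate 3 was the lowest array and GFP-low replicate 4 the highest, so the groups overlapped, and GFP-high replicate 3 was not well above background. The difference was -1.09 ± 0.72 (SE, limma adjusted p = 0.498); it was -0.55 without GFP-low replicate 4 and -1.77 without GFP-low replicate 3. The second probe was above background on 1 array of each group, GFP-high replicate 1 and GFP-low replicate 2, and gives no usable difference. Igfbp2, an abundant binding protein of fetal tissues, read 2.18, 1.27, 1.18 and 1.90 against 1.44, 1.87, 0.97 and 1.81. Its groups overlapped and it differed by 0.11 ± 0.33 (SE, limma adjusted p = 0.890), a sign that turned under normexp background correction and without GFP-high replicate 1 or GFP-low replicate 3.

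Igfbp3, the main carrier of these hormones in adult blood, was near background throughout. Its brightest probe read -4.74, -4.13, -3.94 and -4.62 in GFP-high and -2.99, -3.45, -3.46 and -1.71 in GFP-low, and only GFP-low replicate 4 was well above background. The arrays of the groups did not overlap, but values at this level have no certain order, and with all dim signals raised to 1 common floor the difference was 0.00. The other 2 probes were on no array above background, and 1 spot on GFP-low replicate 3 was dropped as an outlier. Igfbp3 was not tested.

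**Figure D3:**
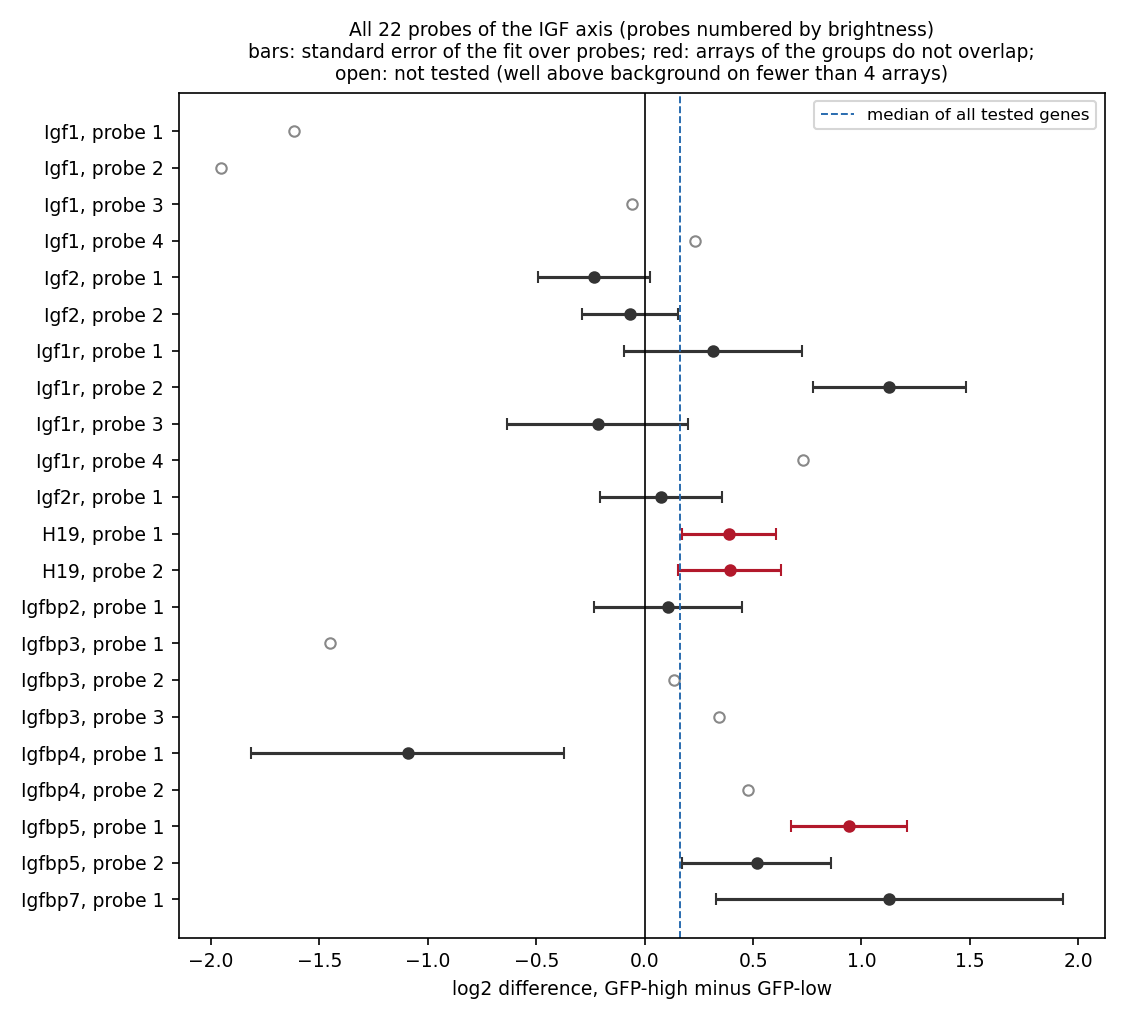
Log2 difference between GFP-high and GFP-low for all 22 probes of the axis, with the standard error of the limma fit over probes where 4 or more arrays were well above background. The probes of H19 and the brighter probe of Igfbp5 are marked as having groups that do not overlap, and probes of Igf1r lie on both sides of 0.

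Other genes of the system were read as 3 lists drawn up from textbook knowledge. In the list of other IGF system genes, which holds insulin, its receptor, further binding proteins, proteases and the Igf2 messenger-binding proteins, 11 of 18 genes were tested, 0 passed in either direction, 3 were higher and 2 lower at an unadjusted limma p under 0.05 (background 7.94% and 6.38% of all genes), and the median difference was 0.28. Igf2bp3, which binds Igf2 messenger RNA, read -0.29, 1.09, 1.69 and 1.91 in GFP-high and 3.15, 3.12, 3.37 and 2.77 in GFP-low. Every GFP-high array lay below every GFP-low array, with GFP-high replicate 1 the lowest. The difference was -2.00 ± 0.47 (SE, 4.00-fold, limma adjusted p = 0.168), it was -2.74 and -1.27 within the slides, and its 2 other probes gave -1.93 and -1.85, also without overlap. Htra1, a secreted protease known to cleave binding proteins, read 0.98, 1.02, 1.30 and 1.26 in GFP-high and -0.71, -0.89, -1.14 and 0.06 in GFP-low. Its groups did not overlap, and it differed by 1.81 ± 0.30 (SE, 3.51-fold, limma adjusted p = 0.0948), or by 1.31 with an adjusted p of 0.0474 under normexp and quantile normalisation, the 1 of 21 settings in which it passed. Igfbpl1, which resembles the binding proteins in sequence, differed by 0.76 ± 0.26 (SE, limma adjusted p = 0.265) with no overlap, and its second probe gave 1.104.

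In the IGF signalling list, from receptor adaptors to the Akt, mTOR and Ras branches, 39 of 45 genes were tested and 0 passed in either direction, with 2 higher and 2 lower at an unadjusted limma p under 0.05 and a median of 0.11. These 4 of 39 genes stand beside 14.3% of all genes at that threshold. Grb14, an adaptor that inhibits insulin receptor signalling, read 0.06, -0.32, 0.66 and 0.31 in GFP-high and 1.61, 1.78, 1.84 and 1.39 in GFP-low, a difference of -1.48 ± 0.27 (SE, 2.79-fold, limma adjusted p = 0.112) without overlap. Foxo3, a transcription factor that Akt inhibits, read 1.81, 0.71, 0.85 and 1.30 against 0.33, -0.57, -0.79 and -0.81, a difference of 1.63 ± 0.36 (SE, limma adjusted p = 0.158) without overlap. Each of the 2 genes had a further probe that was on no array above background. Pik3r1, a regulatory subunit of PI3 kinase, differed by -1.08 ± 0.30 (SE, limma adjusted p = 0.222) on its brightest probe, while probes measured on 7 and 5 of the 8 arrays gave 0.09 and -0.37, and the last probe, measured on 1 array, is not read.

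Of 30 imprinted growth genes 25 were tested and 0 passed in either direction, with 2 higher and 3 lower at an unadjusted limma p under 0.05 (background 7.94% and 6.38% of all genes) and a median of 0.14. Airn, the noncoding RNA that overlaps Igf2r and silences its paternal copy in the mouse, read 0.30, 0.23, 0.69 and 0.63 in GFP-high and -1.31, -1.81, -1.27 and -5.04 in GFP-low (chr17:12944037-12944096, plus strand). The groups did not overlap, and GFP-low replicate 4 was not well above background. The difference was 2.82 ± 0.79 (SE, limma adjusted p = 0.220), and with the common floor it was 1.96 with an adjusted p of 0.0165, the 1 of 21 settings in which it passed. A second Airn probe gave 0.99 with overlapping groups, and the last one was on no array above background. As the strand of the labelled product is not stated, Airn signal and unspliced Igf2r signal from the same place cannot be told apart. Cd81 differed by 0.65 ± 0.22 (SE, limma adjusted p = 0.271) without overlap, and Impact by -1.34 ± 0.50 (SE, limma adjusted p = 0.294) with overlap. In this list 2 genes were higher and 2 lower without overlap (background 5.86% and 3.08% of all genes). The lower ones were Cdkn1c at -0.49 and Mest at -0.605.

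**Figure D4:**
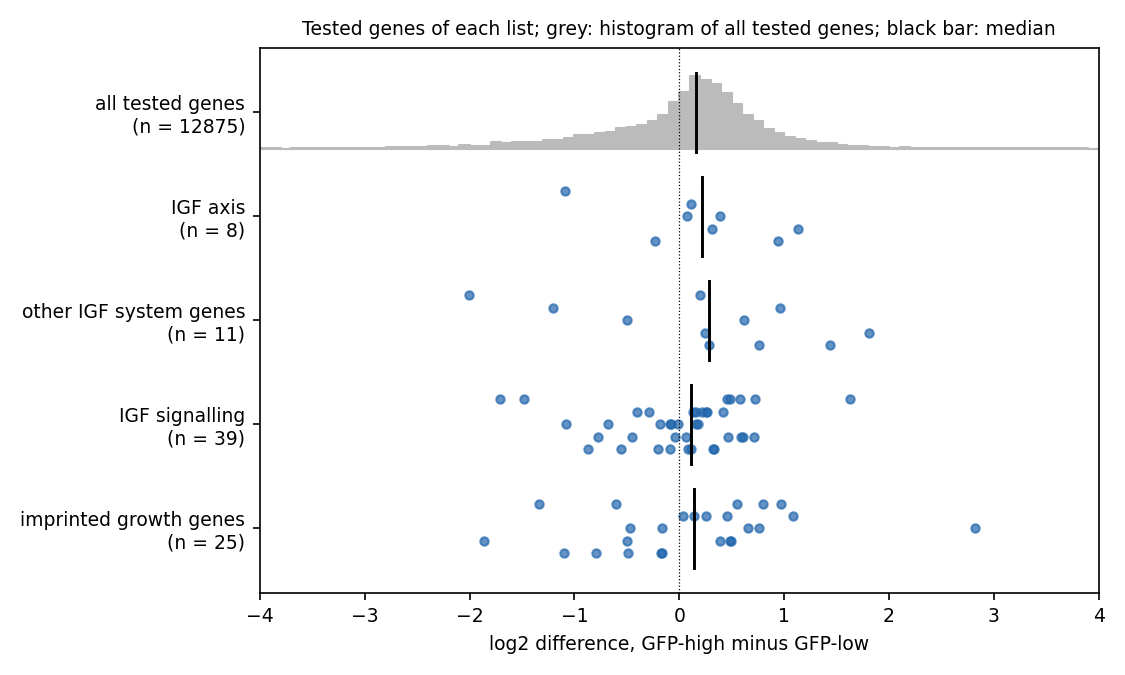
Log2 differences of the tested genes of the axis and of 3 related lists, beside a histogram of all 12875 tested genes, of which 7 lie outside the axis shown. Black bars are medians, at 0.16 for all genes and 0.11 to 0.28 for the lists and the axis.

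The genes whose pattern over the 8 arrays was most like that of the 3 members with the largest spread were found by the mean absolute difference of centred log2 values. For Igfbp7 (SD 1.35 over 8 arrays) they were Mon1b and Lnx2, at 0.343 each, where the median tested gene stood at 1.12. For Igfbp4 (SD 1.23) they were Arl4d at 0.443 and Rtel1 at 0.453, against a median of 1.04. For Igf1r (SD 0.572) they were Ndufaf6 at 0.136 and Utp4 at 0.140, against a median of 0.604. These are the nearest of 12875 genes over 8 arrays that share their scaling, so the closeness is a description.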

How the data were processed

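RNA of 4 GFP-high and 4 GFP-low samples was measured on 1-colour Agilent arrays. The deposited files hold spot intensities on a linear scale, which Agilent Feature Extraction 10.5.1.1 had read and background-subtracted, per the file headers and the submitters' processing notes; the deposited whole-series table held the same intensity at all 45018 spots. Control spots and outlier-flagged spots were left out, spots of a probe were averaged, and log2 of the processed signal was taken relative to the 75th percentile of each array. A probe was detected where at least 50% of its spots were flagged well above background. The brightest probe stood for a gene, and genes detected on at least 4 of 8 arrays were tested with limma 3.58.1 (R 4.3.3), fitting the group alone, with Benjamini-Hochberg adjustment over 12875 genes; the fit was tested on simulated arrays. No spot was saturated, and the number of arrays limits precision. Of 41174 probes, 33070 received a current symbol from RefSeq (GRCm38.p6, names and overlaps only). Replicates 1 and 2 of either group were on slide 1, the remaining replicates on slide 2. Summed marker levels are sums of linear signal over the 75th percentile.

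Members, lists and markers were chosen with earlier results of these data known. Named were all members with every probe, in each list every called gene and the 3 with the smallest p, and the 2 genes nearest in pattern to the 3 most variable members. Alternatives covered scaling, background correction, floor, filter, probe choice, slide and replicate blocks, trend and robust fitting, and leaving out each array.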

Additional observations from a re-analysis of the deposited data

Results flagged for a closer look

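In 26 sets of 4 arrays of the members' probes, 3 had an array far from the rest, with a gap to the nearest array, divided by the range of the set, above Dixon's critical value for 4 values; chance gives about 1 in 20. For the brighter Igfbp5 probe GFP-high replicate 2 (5.24, nearest 5.63) had a share of 0.881. For Igfbp7 GFP-high replicate 3 (2.58, nearest 0.45) had 0.830. For the brighter H19 probe GFP-low replicate 3 (7.21, nearest 7.34) had 0.887.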

How the results depend on the processing

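In every setting run, 0 axis members and 0 IGF signalling genes passed (main test, limma: 1 of 8 and 4 of 39 at an unadjusted p under 0.05). Of the imprinted growth genes 0 passed (5 of 25 at an unadjusted limma p under 0.05), except under the common floor, with 1 (Airn). Igfbp5 kept its sign in 21 of 21 settings, at 0.73 to 1.06 with limma adjusted p 0.0901 to 0.489, and H19 at 0.13 to 0.40 with adjusted p 0.0875 to 0.7998. The authors' table, the filters, the blocks, and trend and robust fitting could not change the differences of these genes. The common floor left them unchanged too. Over all genes, 18 passed; 0 passed when scaled to the median (1596 at an unadjusted limma p under 0.05), 4 with the percentile of probes detected on all arrays, 9 with quantile normalisation, 42 with the common floor, 3 with no filter, 7 with every probe tested and 11 with the slide as a block. Leaving out 1 array gave 0 to 7. With the replicate number as a block 0 passed (smallest limma adjusted p 0.134, 2381 at an unadjusted p under 0.05); arrays of equal number correlated at 0.0647 to 0.303 after removal of group means, and 7 of 8 correlated best with their own number. The labels do not say that the numbers pair samples, and the block changed no call of a member.

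The sign of Igf2r turned to -0.030 with the percentile of detected probes, -0.19 with quantile normalisation, -0.12 with normexp, -0.20 with normexp and quantile, -0.058 without GFP-high replicate 1, -0.01 without GFP-low replicate 2 and -0.10 on slide 2 alone. Igfbp2 turned to -0.0011 with normexp and to -0.073 without GFP-high replicate 1 and without GFP-low replicate 3. When 1 array was left out Igf2r reached 0.24 and Igfbp2 0.26. On slide 2 alone Igf1r was -0.37 and Igf1r minus Igf2r -0.26. Igf1r minus Igf2r otherwise lay between 0.01 and 0.57 when 1 array was left out. Igfbp3, near background throughout, was -0.21 with normexp, -0.44 with normexp and quantile and 0 with the common floor, which raises all its arrays to 1 value. The cause of the other changes was not tested. With 4 arrays per group and amplified RNA, dim probes such as those of Igf1 and Igfbp3 give bounds or no value.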
